A study of Mus musculus with 12 samples.

Results

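The mouse mitochondrial genome is a small circle that carries its own genes, and 37 of the 55450 genes in the count table are encoded on it. They were chosen by name alone, as every gene whose symbol starts with mt-. They comprise 13 messenger RNAs, 2 ribosomal RNAs and 22 transfer RNAs. All 37 lie on the mitochondrial chromosome of the annotation (GENCODE M21, genome build GRCm38), 28 on the plus strand and 9 on the minus strand, the latter being mt-Nd6 and 8 transfer RNAs. RNA was measured in donor cells sorted from the bone marrow of mice that had received competitive transplants. The sort kept lineage-negative, Kit-positive cells, a mixture of stem and progenitor cells. Libraries of total RNA were made after removal of ribosomal RNA. The 12 libraries carry 4 genotype labels with 3 libraries each: WT, Tet2KO (Tet2 KO), Id1KO (Id1 KO) and dKO (Tet2 KO + Id1KO). Tet2 encodes a DNA dioxygenase often mutated in clonal hematopoiesis. Id1 is an inhibitor of helix-loop-helix transcription factors. The labels do not give the alleles, any Cre driver, or the age of donors and recipients. All libraries of a genotype share 1 sample number in their titles, so they may be repeat libraries of 1 cell sample, and p-values then measure only the spread between these libraries.

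Mitochondrial genes supply the core subunits of the respiratory chain, while nuclear genes supply the remaining subunits and every protein that copies, transcribes and processes mitochondrial DNA and RNA. Each strand is transcribed as a long precursor. Transfer RNAs that lie between the other genes are cut out, which frees the messenger and ribosomal RNAs. The polymerase Polrmt and the factors Tfam and Tefm make the precursors, the Lrpprc and Slirp pair stabilises messenger RNAs, Mtpap adds their poly(A) tails, and the helicase Supv3l1 with the nuclease Pnpt1 degrades them. The minus strand genes, mt-Nd6 among them, come from the precursor of the opposite strand. Hematopoietic stem cells are known for a low reliance on respiration, which rises as progenitors differentiate.

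Each library held between 15706407 and 19959183 estimated counts. Levels are given in CPM, a counts-per-million scale of the TMM-adjusted library total, and as mean ± SD over n = 3 libraries. A gene was called changed when edgeR's quasi-likelihood test across all 14346 genes tested gave an adjusted p (Benjamini-Hochberg) under 0.05. Of the 37 genes, the 13 messenger and 2 ribosomal RNAs passed the filter on low counts, and none of the 22 transfer RNAs did. Tet2 and Id1 had no lower counts where the label says that they are deleted, so every genotype name here is the label of a library. Tet2 stood at 99.3 CPM in WT and 130 in Tet2KO, and Id1 at 1.47 CPM in WT and 3.96 in Id1KO. Counts are over whole genes and would not show the loss of a part of one. Stem and progenitor markers, Kit among them, were above 0 for 8 of 8 genes, with a summed level of 673 to 829 CPM. In WT 1, mt-Rnr1 and mt-Rnr2 stood far above the other WT libraries.

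Several mitochondrial genes have near-identical pieces in the nuclear genome that are annotated as genes of their own, and this bears on how their counts are read. A search at 95% identity or more over at least 100 bases found 11 such nuclear genes for 9 of the members, and 9 of them held counts. The 5 with the most counts, at least 1020.27 in every library, lie on the minus strand of chromosome 1, from Gm28438 at chr1:24612775-24613119 to Gm29216 at chr1:24615706-24616197. Gm28661 matches mt-Co2 (chrM:7013-7696, plus strand) over 681 of its bases at 100% identity. Gm10925 matches mt-Atp6 over 678 bases, Gm28437 matches mt-Co3 over 783 and Gm10222 matches mt-Nd4l over 294, each at 100%. The start of mt-Co2 and of its nuclear copy is shown because no base in it can tell a read of one from a read of the other. Sequences are those of GENCODE M21 on GRCm38, 5′ to 3′, and the capitals mark the ATG start codon.

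mt-Co2: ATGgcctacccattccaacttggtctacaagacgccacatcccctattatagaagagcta

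Gm28661: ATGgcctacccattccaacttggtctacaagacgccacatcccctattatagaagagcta

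Gm29216 matches only the last 483 of the 1545 bases of mt-Co1 (chrM:5328-6872, plus strand), and Gm28438 matches 345 bases of mt-Nd3. Each holds a single difference in the matched part, A1066T for mt-Co1 and T3C for mt-Nd3, with positions counted from 1 at the 5′ end of the mitochondrial gene. The stretches around these bases are shown because only a read that covers the capital letter, or reaches past the matched part, can tell gene from copy.

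mt-Co1: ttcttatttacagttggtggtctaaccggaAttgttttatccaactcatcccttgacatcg

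Gm29216: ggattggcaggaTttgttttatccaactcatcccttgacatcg

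mt-Nd3: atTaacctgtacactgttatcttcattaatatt

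Gm28438: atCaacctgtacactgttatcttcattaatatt

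Mitochondrial genes also overlap each other. The last 43 bases of mt-Atp8 are the first 43 of mt-Atp6 on the same strand, with the capitals marking the start codon of mt-Atp6.

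mt-Atp8 end and mt-Atp6 start: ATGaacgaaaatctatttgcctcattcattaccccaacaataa

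The genes mt-Nd5 (chrM:11742-13565, plus strand) and mt-Nd6 (chrM:13552-14070, minus strand) run toward each other and share their last 14 bases, in capitals in both ends below. The library kit keeps the strand, but the strand setting of the counting is not given in the sources used here. Without it, reads of mt-Nd6 could not be told from plus strand precursor across the same place.

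mt-Nd5 end: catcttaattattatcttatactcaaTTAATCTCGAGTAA

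mt-Nd6 end: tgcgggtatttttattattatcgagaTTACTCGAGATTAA

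The authors' counting divided reads of the shared sequence between gene and copy, and the division varied from library to library. mt-Co1 received 90.7% to 92.3% of the counts of gene plus copies. mt-Co2 received 17.5% to 29.2%, mt-Co3 28.2% to 45.8%, mt-Atp6 40.5% to 58.0% and mt-Nd3 41.4% to 65.9%. mt-Nd4l received between 0% and 58.0%, and none at all in Tet2KO 2 and dKO 2. The library-to-library spread for these genes is thus partly that of the division, and values with the counts of the copies added to the gene are given beside the values as deposited. mt-Nd4 kept at least 99.2%, and mt-Nd1, mt-Atp8, mt-Nd6 and mt-Cytb had no such copy.

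**Figure D1:**
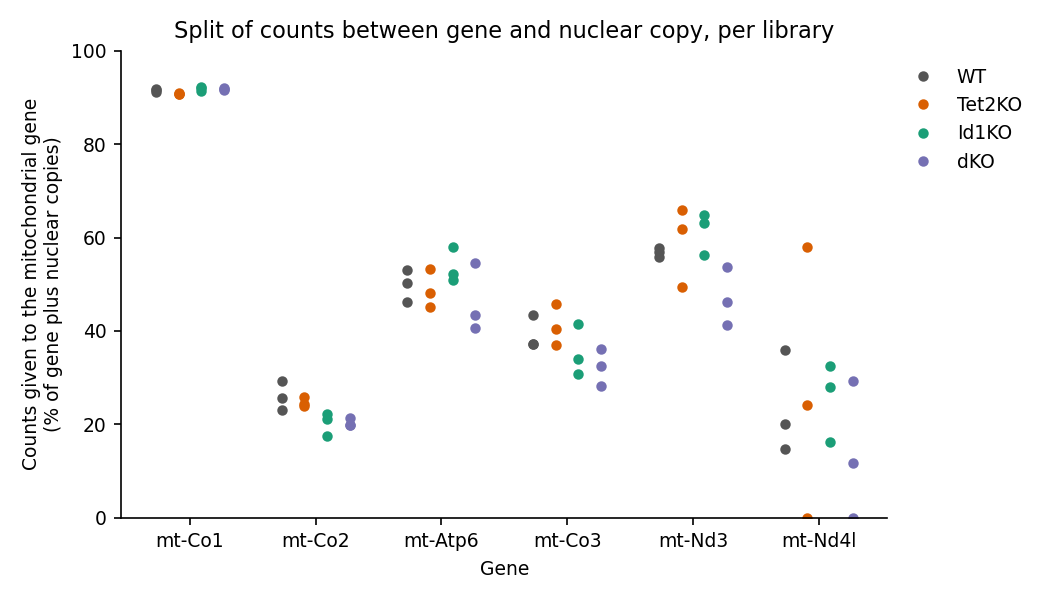
Share of the counts of gene plus nuclear copies that was given to the mitochondrial gene (y axis, %), for 6 genes (x axis); each point is 1 of 12 libraries, coloured by genotype label. mt-Co1 lies between 90.7% and 92.3%, while mt-Nd4l runs from 0% to 58.0%.

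Mitochondrial messenger RNAs took the smallest share of all counts in dKO, and a rising share in Tet2KO, WT and Id1KO in that order. The 13 together made up 0.949%, 0.977% and 0.947% of all counts in WT 1, 2 and 3, and 1.01% in each Id1KO library. They made up 0.791%, 0.822% and 0.790% in Tet2KO, and 0.679%, 0.757% and 0.679% in dKO. No Tet2KO or dKO library reached the lowest WT or Id1KO library, and dKO lay below Tet2KO in every library. From WT to Tet2KO the mean share fell by 16.4%, and from Id1KO to dKO it fell by 30.1%. With the nuclear copies added the shares were 1.42 ± 0.0037% in WT and 1.19 ± 0.017% in Tet2KO, and 1.52 ± 0.026% in Id1KO and 1.09 ± 0.058% in dKO (SD, n = 3). The order of the 4 labels was the same, and dKO 2, at 1.15%, came close to the lowest Tet2KO library at 1.17%.

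**Figure D2:**
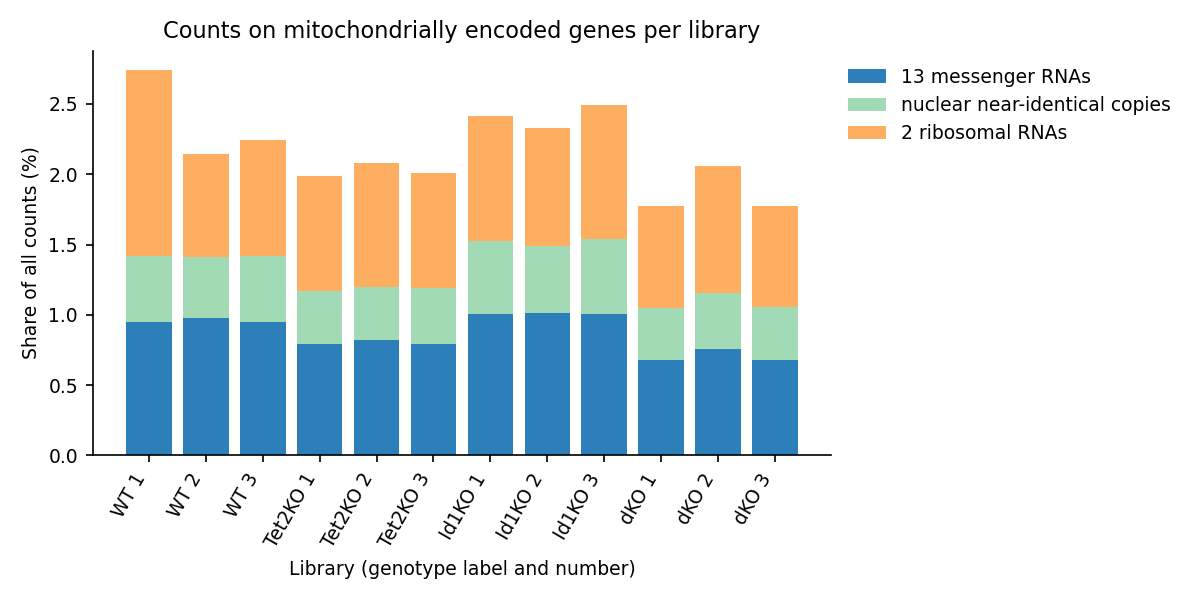
Share of all counts (y axis, %) on the 13 mitochondrial messenger RNAs, their near-identical nuclear copies and the 2 mitochondrial ribosomal RNAs, stacked for each of 12 libraries (x axis). The messenger part is near 1% in WT and Id1KO and lowest in dKO 1 and dKO 3 at 0.679%, and the ribosomal part is highest in WT 1 at 1.32%.

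Levels per length differed widely among the messengers, which share a precursor except for mt-Nd6 from the opposite strand. Lengths are those of the whole annotated gene, such as 204 bases for mt-Atp8, with no correction for fragment length. With copies added, mt-Co3 had the highest messenger level at 3752 CPM per kb over all 12 libraries, followed by mt-Co1 at 3335 and mt-Co2 at 2918, the messengers of the 3 mitochondrial subunits of cytochrome c oxidase (complex IV). mt-Atp6, a subunit of ATP synthase, was at 1155 CPM per kb. mt-Nd3 at 701, mt-Atp8 at 688, mt-Cytb at 649 and mt-Nd1 at 616.5 came next. A lower group followed, with mt-Nd4 at 133 CPM per kb, mt-Nd2 at 104, mt-Nd5 at 64.3, mt-Nd4l at 60.2 and mt-Nd6 at 31.2, all of them subunits of complex I, which takes electrons from NADH. The order of the first 4 was the same in all 4 group means. The next neighbours changed places, as mt-Nd3 led them in WT at 782 CPM per kb and was the lowest of them in Tet2KO at 555. mt-Nd5 and mt-Nd4l did so too, with mt-Nd4l higher in WT and Id1KO and mt-Nd5 higher in Tet2KO and dKO.

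**Figure D3:**
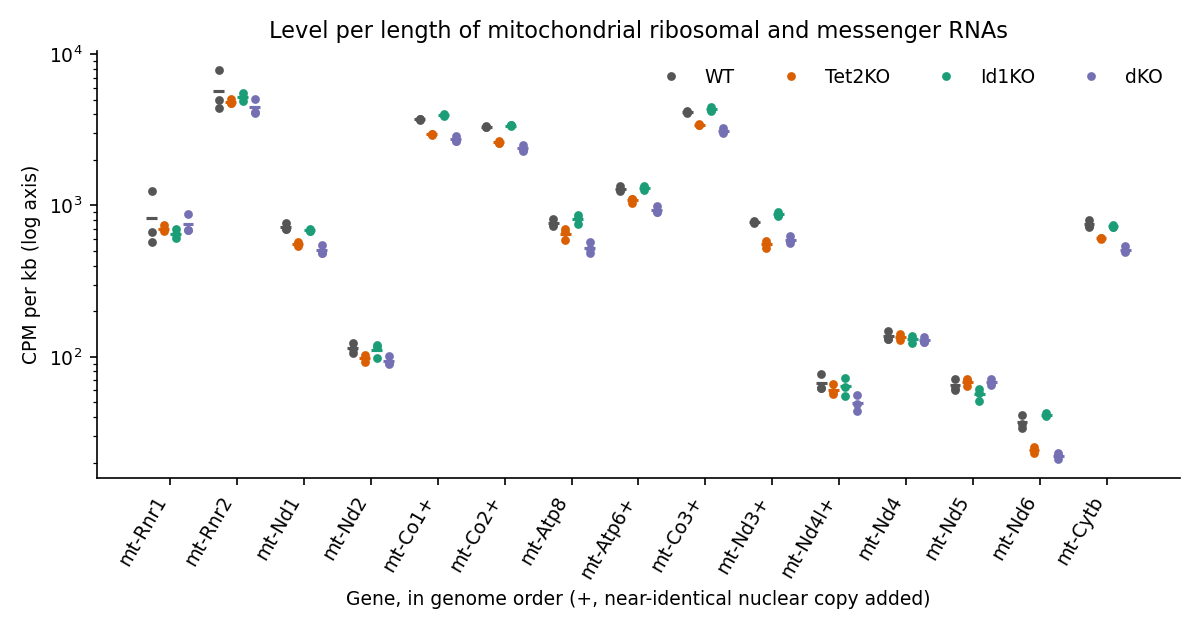
Level per length (y axis, CPM per kb, log axis) of the 2 ribosomal and 13 messenger RNAs in genome order (x axis), with nuclear copies added where marked by a plus sign. Points are libraries and dashes are means of 3, coloured by genotype label; mt-Co3 is the highest messenger at 3752 and mt-Nd6 the lowest at 31.2 over all libraries.

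The Tet2KO label was first compared with WT. In Tet2KO, 9 of 13 messengers fell and none rose, and the median log2 fold change was -0.28. Among all genes 32.8% were called, 16.2% as lower, and the median was 0.00. With the copies added 10 of 13 fell, against 32.8% of all genes called in either direction, and mt-Nd4, mt-Nd5 and mt-Nd4l were the messengers not called.

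mt-Cytb, the only mitochondrial subunit of complex III, had no copy and is the plainest case. It stood at 921, 837 and 830 CPM in WT 1, 2 and 3, at 694, 700 and 686 in Tet2KO, then 849, 825 and 820 for Id1KO and 570, 616 and 568 for dKO. WT and Id1KO libraries overlapped, all Tet2KO libraries lay below them, and all dKO libraries lay lower still. Its log2 fold change was -0.32 ± 0.037 (SE, edgeR adjusted p 1.51e-06) from WT to Tet2KO and -0.51 ± 0.037 (edgeR adjusted p 4.77e-09) from Id1KO to dKO.

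In complex I, mt-Nd1 moved in much the same way. Its levels were 734, 667 and 669 CPM in WT, 520, 545 and 532 in Tet2KO, then 669, 647 and 647 for Id1KO and 465, 524 and 463 for dKO. It fell by 0.37 on the log2 scale in Tet2KO (SE 0.042, edgeR adjusted p 8.98e-07), and dKO 2 lay within the Tet2KO range while the other dKO libraries lay below it. mt-Nd2 fell less, by 0.22 ± 0.063 (edgeR adjusted p 0.0116), from 118 ± 8.7 CPM in WT to 101 ± 5.9 in Tet2KO. That call was lost with DESeq2, without WT 1, without Tet2KO 1 and with library totals as the scale.

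mt-Nd6 is the only messenger of the opposite strand and showed the largest fall of the 13 in Tet2KO against WT. It stood at 21.4, 17.6 and 18.6 CPM in WT, at 13.1, 12.6 and 12.1 in Tet2KO, then 21.1, 21.9 and 21.4 for Id1KO and 11.7, 11.9 and 10.99 for dKO. These levels rest on 412, 342 and 345 counts in WT and 214, 211 and 224 in Tet2KO. Tet2KO and dKO libraries all lay below every WT and Id1KO library. The log2 fold change was -0.61 ± 0.074 (edgeR adjusted p 2.57e-06) from WT to Tet2KO and -0.90 ± 0.075 (edgeR adjusted p 3.17e-08) in dKO against Id1KO.

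The cytochrome c oxidase messengers fell together once their copies were added. mt-Co1 with its copies stood at 5630, 5769 and 5745 CPM in WT, 4493, 4578 and 4583 in Tet2KO, then 6104, 5994 and 6234 for Id1KO and 4136, 4433 and 4134 for dKO. The 4 groups did not overlap. Its log2 fold change in Tet2KO against WT was -0.33 ± 0.028 with copies and -0.34 ± 0.029 as deposited (edgeR adjusted p 2.42e-08 and 2.27e-08). mt-Co2 was at 2280, 2256 and 2252 CPM in WT with its copies, and at 1756, 1827 and 1776 in Tet2KO, a change of -0.34 ± 0.031 (edgeR adjusted p 4.57e-08). As deposited it was at 528, 659 and 578 CPM in WT against 428, 471 and 425 in Tet2KO, and the change was -0.41 ± 0.077. mt-Co3 was not called as deposited, at -0.22 ± 0.095 (edgeR adjusted p 0.0808), and fell by 0.28 with its copies (SE 0.030, edgeR adjusted p 4.48e-07). Its levels with copies were 3186, 3290 and 3271 CPM in WT and 2664, 2691 and 2682 in Tet2KO.

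The ATP synthase messengers mt-Atp8 and mt-Atp6, which lie on 1 overlapping transcript, fell by 0.24 and 0.25 with copies (SE 0.059 and 0.037, edgeR adjusted p 0.00387 and 2.22e-05). mt-Atp8 stood at 156 ± 8.5 CPM in WT and 132 ± 11 in Tet2KO. mt-Nd3, another subunit of complex I, had the second largest fall. With its copies it went from 268, 272 and 276 CPM in WT to 183, 201 and 195 in Tet2KO, a log2 change of -0.50 ± 0.039 (edgeR adjusted p 5.85e-09).

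mt-Nd4 and mt-Nd5, subunits of complex I with only transfer RNA genes between them, were not called lower. mt-Nd4 stood at 205, 180 and 182 CPM in WT, 179, 185 and 195 in Tet2KO, then 190, 182 and 170 for Id1KO and 171, 187 and 172 for dKO. The 4 groups overlapped, and its log2 change in Tet2KO was -0.02 ± 0.049 (edgeR adjusted p 0.802). mt-Nd5 stood at 129, 110 and 114 CPM in WT, 116, 128 and 129 in Tet2KO, then 112, 105 and 93.3 for Id1KO and 119, 129 and 122 for dKO. Its change in Tet2KO was 0.08 ± 0.059 (edgeR adjusted p 0.354). mt-Nd4l, which overlaps mt-Nd4 by 7 bases, was at 16.8 to 19.7 CPM in Tet2KO with copies and had a change of -0.15 ± 0.10 (edgeR adjusted p 0.275).

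On the other Id1 background, dKO was compared with Id1KO. In dKO 10 of 13 messengers fell and 1 rose, with a median log2 fold change of -0.53, while 19.3% of all genes were called and 8.7% were lower. With copies added 11 fell and 1 rose (19.2% of all genes called). mt-Co1, mt-Co2, mt-Co3, mt-Atp6 and mt-Nd3 with copies fell by 0.53, 0.50, 0.47, 0.49 and 0.56 on the log2 scale, mt-Atp8 by 0.64 and mt-Nd1 by 0.44. mt-Nd2 fell by 0.24 (SE 0.064, edgeR adjusted p 0.0119), a call that was lost with DESeq2 and without any 1 of 4 libraries, Id1KO 1, Id1KO 2, dKO 1 or dKO 3. mt-Nd4l was called with copies only, at -0.37 ± 0.11 (edgeR adjusted p 0.0185), and lost that call without Id1KO 1, dKO 1 or dKO 3 (-0.26, -0.36 and -0.29). mt-Nd5 was the messenger that rose, by 0.26 ± 0.060 (edgeR adjusted p 0.00421), and its 3 dKO libraries all lay above its 3 Id1KO libraries. mt-Nd4 was at -0.03 ± 0.049 (edgeR adjusted p 0.713).

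With the 3 libraries of each genotype summed and additive effects fitted, 6 messengers were lower with a Tet2-null label, a single estimate for both backgrounds. mt-Atp8, mt-Atp6 and mt-Nd2 lost their call in both comparisons, and mt-Co3 and mt-Nd5 lost theirs in dKO against Id1KO.

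**Figure D4:**
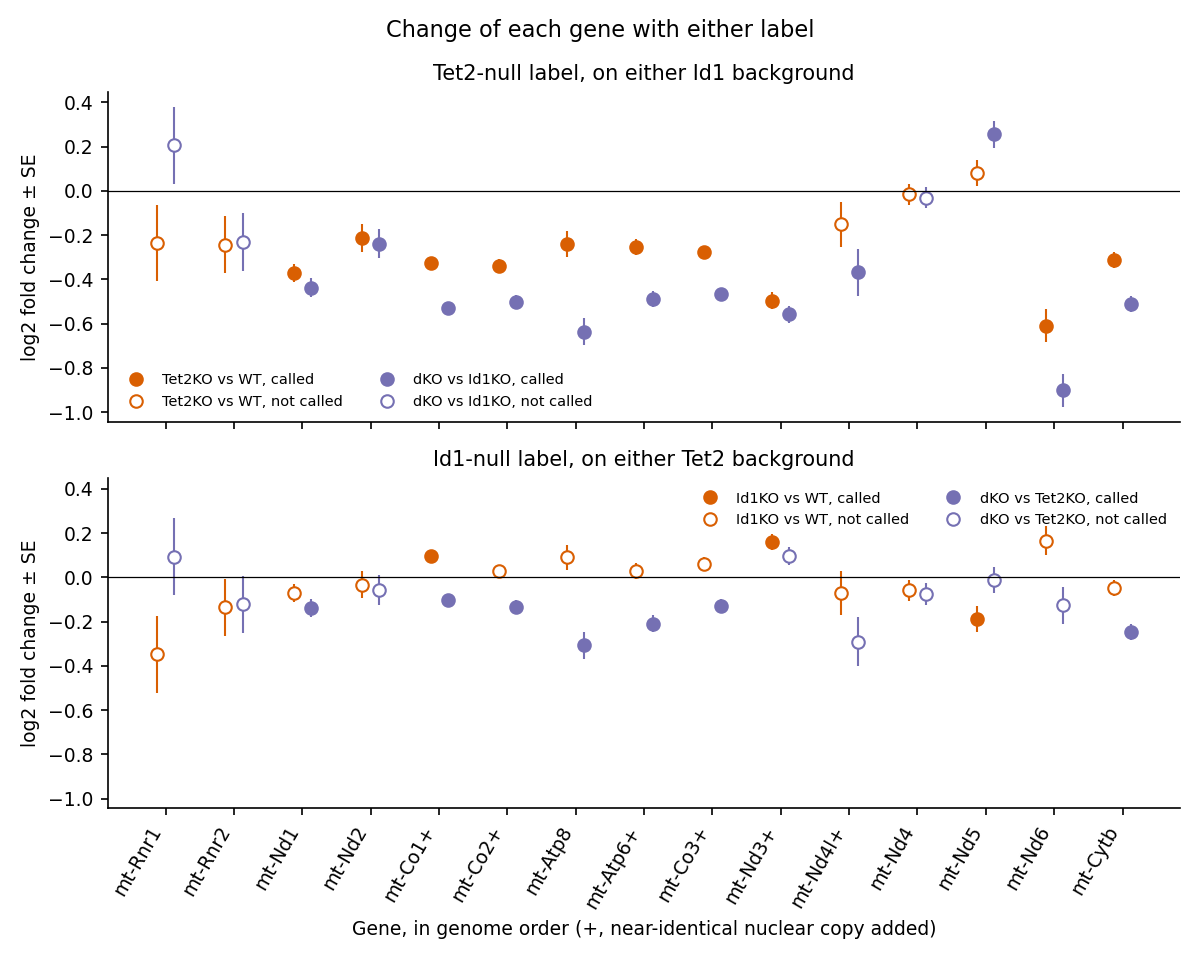
log2 fold change ± SE (y axis) of each gene in genome order (x axis), nuclear copies added where marked; the upper panel shows Tet2KO against WT and dKO against Id1KO, the lower panel Id1KO against WT and dKO against Tet2KO. Filled points passed an adjusted p of 0.05; in the upper panel mt-Nd6 is lowest at -0.61 and -0.90, and mt-Nd5 in dKO against Id1KO is the only filled point above 0.

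Since most messengers fell together, each was also tested relative to the sum of the 13. The fit on this scale made more false calls across all genes on simulated data than the fit to library sizes. Its adjusted p-values are to be read with that limit. On this scale 71.6% of all genes were called in Tet2KO against WT, where the median log2 fold change of all genes was 0.31, and for dKO against Id1KO 85.1% were, with a median of 0.52. In Tet2KO 3 messengers differed from the sum, mt-Nd4 and mt-Nd5 upward and mt-Nd6 downward. mt-Nd4 rose against the sum by 0.29 ± 0.055 (edgeR adjusted p 7.18e-05), mt-Nd5 by 0.39 ± 0.063 (1.62e-05), and mt-Nd6 fell by 0.30 (SE 0.082, edgeR adjusted p 0.00286). Without WT 1 the number was 5. With copies added 4 differed, where 71.9% of all genes were called, and the one added was mt-Nd3 at -0.19 ± 0.035 (edgeR adjusted p 0.000105). In dKO against Id1KO 6 differed. mt-Nd4 rose against the sum by 0.49, mt-Nd5 by 0.78 and mt-Nd2 by 0.28, and mt-Nd6, mt-Nd3 and mt-Atp6 fell by 0.38, 0.41 and 0.19. With copies added 5 differed (83.9% of all genes called). mt-Nd2, mt-Nd4, mt-Nd5 and mt-Nd6 were among them at 0.25, 0.46, 0.74 and -0.41, mt-Atp8 was added at -0.15, and mt-Nd3 and mt-Atp6 were not called at -0.07 and 0.00.

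The same shift can be read within a library from the ratio of 2 counts. mt-Nd5 had 0.140, 0.132 and 0.138 counts per count of mt-Cytb in WT, 0.168, 0.182 and 0.188 in Tet2KO, then 0.131, 0.127 and 0.114 for Id1KO and 0.209, 0.210 and 0.215 for dKO. The ratio was above every WT and Id1KO library in all 6 libraries with a Tet2-null label, and highest in dKO. mt-Nd4 per mt-Cytb went from 0.219 ± 0.0037 in WT to 0.269 ± 0.014 in Tet2KO, and from 0.217 ± 0.0089 in Id1KO to 0.303 ± 0.00074 in dKO (SD, n = 3). mt-Nd6 per mt-Cytb moved the other way, from 0.0222 ± 0.0011 to 0.0181 ± 0.00067 and from 0.0259 ± 0.00086 to 0.0197 ± 0.00065. For mt-Nd1, which fell with mt-Cytb, the group means lay between 0.768 and 0.827.

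**Figure D5:**
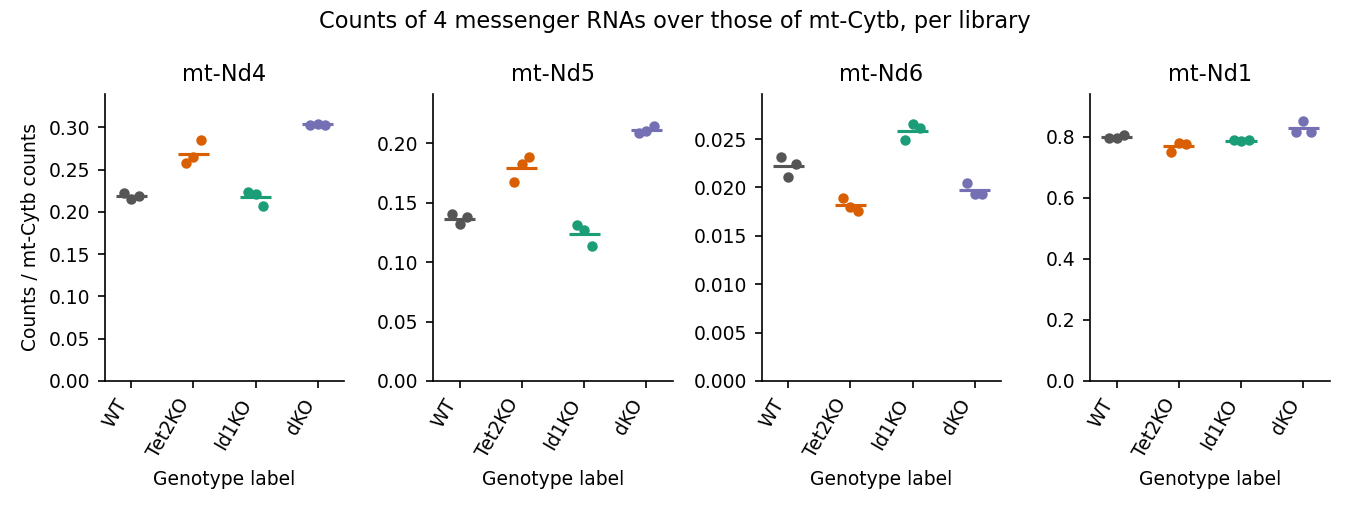
Counts of mt-Nd4, mt-Nd5, mt-Nd6 and mt-Nd1 divided by those of mt-Cytb (y axes from 0) in each library by genotype label (x axis); dashes are means of 3. mt-Nd5 runs from 0.114 to 0.140 in WT and Id1KO and from 0.168 to 0.215 in Tet2KO and dKO, while mt-Nd6 is lower in the latter and mt-Nd1 stays near 0.8.

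Id1KO was compared with WT for the Id1-null label alone, and few messengers changed. As deposited 2 rose and 2 fell, where 15% of all genes were called. With library totals as the scale 3 rose and 1 fell. With copies added 2 rose and 1 fell (15% of all genes called). mt-Co1 rose by 0.10 ± 0.028 (edgeR adjusted p 0.0243) and mt-Nd3 by 0.16 ± 0.037 (edgeR adjusted p 0.00593), while mt-Nd5 fell by 0.19 (SE 0.059, edgeR adjusted p 0.035). mt-Co2 fell by 0.33 as deposited (SE 0.077, edgeR adjusted p 0.00568), but with its copies its level was 2263 ± 15 CPM in WT and 2305 ± 17 in Id1KO, a change of 0.03 ± 0.031 (edgeR adjusted p 0.61). The count of 4 calls became 2 without WT 3 or without Id1KO 1, and 1 without Id1KO 3. Relative to the messenger sum 8.47% of all genes were called and mt-Co2 and mt-Nd5 were lower. With copies 3 were called (13.6% of all genes called), namely mt-Nd5 at -0.24, mt-Nd1 at -0.13 and mt-Nd3 at 0.11, and mt-Co2 was at -0.03.

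Against Tet2KO, dKO had lower levels of several messengers. As deposited 8 of 13 fell and none rose, with a median log2 fold change of -0.22 (26.4% of all genes called, 13.4% as lower). With copies 7 fell (26.5% of all genes called). mt-Cytb fell by 0.25 ± 0.037 (edgeR adjusted p 5.44e-05), mt-Atp8 by 0.31 ± 0.063 (0.00108), and mt-Atp6 with copies by 0.21 ± 0.037 (0.000272). mt-Co1, mt-Co2 and mt-Co3 with copies fell by 0.10, 0.13 and 0.13 (edgeR adjusted p 0.00935, 0.00291 and 0.003), and mt-Nd1 by 0.14 (0.0191). mt-Nd6 was at -0.13 ± 0.082 (edgeR adjusted p 0.286) and mt-Nd5 at -0.01 ± 0.059 (0.918). For mt-Nd3 the division of counts decided the sign. The gene fell by 0.22 as deposited (edgeR adjusted p 0.0421), its copy Gm28438 rose by 0.46 ± 0.12 (0.00858), and their sum was at 0.10 ± 0.040 (0.0786). The 8 calls became 5 without Tet2KO 3 or without dKO 1, and 0 in the additive fit to summed libraries. That fit has a single estimate of the Id1-null label for both Tet2 backgrounds, so it does not test this comparison alone. Relative to the sum 46.2% of all genes were called, and mt-Nd5 was higher and mt-Co2 and mt-Co3 lower, all 3 of which lost their call with copies added. In their place mt-Nd3 was higher by 0.22 and mt-Atp8 and mt-Cytb were lower, at -0.18 and -0.12 (37.1% of all genes called).

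Across both labels, dKO against WT gave 10 of 13 messengers lower and none higher, with a median log2 fold change of -0.56 (19.2% of all genes called, 8.97% as lower). With copies 11 fell (19.3% of all genes called). mt-Cytb fell by 0.56, mt-Nd6 by 0.74, mt-Nd1 by 0.51 and mt-Nd2 by 0.27. mt-Nd4 was at -0.10 ± 0.049 and mt-Nd5 at 0.06 ± 0.059 (edgeR adjusted p 0.191 and 0.499). In the additive fit to summed libraries 1 messenger was called, mt-Co2. Relative to the sum 83.2% of all genes were called. On that scale mt-Nd2, mt-Nd4 and mt-Nd5 were higher by 0.22, 0.40 and 0.56, and mt-Co2, mt-Co3 and mt-Nd6 lower. With copies 5 were called (81% of all genes called). mt-Nd2, mt-Nd4 and mt-Nd5 were higher by 0.16, 0.35 and 0.50, and mt-Nd6 and mt-Cytb were at -0.30 and -0.12. Without WT 1 and without copies, mt-Nd6 was at -0.15 and not called.

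The change with the Tet2-null label was larger in size on the Id1-null background for some messengers, as tested by the interaction. It was negative and called for 5 of 13 as deposited, where 14.5% of all genes were called and 7.03% were negative, and for 6 with copies (14.5% of all genes called). With copies these were mt-Co1 at -0.20, mt-Co2 at -0.16, mt-Co3 at -0.19, mt-Atp8 at -0.40, mt-Atp6 at -0.24 and mt-Cytb at -0.20. mt-Nd3 was called as deposited at -0.48 and not with copies, at -0.06 (edgeR adjusted p 0.501). For mt-Nd1 the value was -0.06 ± 0.059 and for mt-Nd6 -0.29 ± 0.11 (edgeR adjusted p 0.556 and 0.0776). Relative to the sum 36.7% of all genes were called, and of the messengers mt-Nd5 was called at 0.39 ± 0.090 (edgeR adjusted p 0.00247). With copies it was at 0.36 ± 0.086 (edgeR adjusted p 0.00419), and mt-Atp8 was called at -0.22 ± 0.080 (0.0441), where 33.6% of all genes were called.

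The ribosomal RNAs mt-Rnr1 and mt-Rnr2 are components of the small and large mitochondrial ribosome subunits. They were called in no comparison by edgeR over all 12 libraries with TMM scaling and the filter at a minimum count of 10, or by DESeq2. At an unadjusted p under 0.05 edgeR gave 1, mt-Rnr2 in dKO against WT. That value lay near the threshold and was called with upper-quartile scaling, with 10 counts required in every library of a genotype, with summed libraries, and without WT 2, WT 3 or dKO 2 (edgeR adjusted p 0.048, 0.0483, 0.0136, 0.00489, 0.0325 and 0.0247). mt-Rnr2 stood at 12420, 6983 and 7851 CPM in WT, 7475, 8002 and 7469 in Tet2KO, then 8228, 7760 and 8755 for Id1KO and 6557, 8035 and 6517 for dKO. Apart from WT 1 the groups overlapped. mt-Rnr1 stood at 1197, 545 and 636 CPM in WT, 650, 704 and 662 in Tet2KO, then 617, 580 and 667 for Id1KO and 653, 840 and 658 for dKO. In dKO against WT the log2 fold changes were -0.14 ± 0.17 for mt-Rnr1 and -0.37 ± 0.13 for mt-Rnr2 (edgeR adjusted p 0.63 and 0.0528). Without WT 1 they were 0.28 (edgeR adjusted p 0.0247) and -0.07 (0.529). In Tet2KO against WT they were -0.24 and -0.25 with all libraries, 0.19 and 0.05 without WT 1, and -0.44 and -0.40 without WT 2 (edgeR adjusted p 0.0406 and 0.0163). mt-Rnr1 in Id1KO against WT was at -0.35 with all libraries (edgeR adjusted p 0.195), 0.08 without WT 1 and -0.56 without WT 2 (0.0247). mt-Rnr2 in dKO against WT was at -0.52 without WT 2. In dKO against Id1KO mt-Rnr2 was at -0.23 with all libraries (edgeR adjusted p 0.242), and it was called with summed libraries, when only those 6 libraries were fitted, and without WT 1 (0.0166, 0.0187 and 0.0132). With no filter on low counts edgeR called both ribosomal RNAs in all 5 comparisons of a pair of labels, and in the interaction mt-Rnr1. Relative to the messenger sum, mt-Rnr1 was higher in dKO than in Id1KO by 0.72 ± 0.17 and with copies in the sum by 0.69 ± 0.18 (edgeR adjusted p 0.000492 and 0.00156), while mt-Rnr2 was at 0.29 and 0.25 (0.0417 and 0.0766). On that scale the interaction of mt-Rnr1 was at 0.65 ± 0.24 (edgeR adjusted p 0.0371), and at 0.62 with copies (0.0656) and 0.22 without WT 1 (0.111). The WT libraries gave 23098, 10563 and 11777 counts for mt-Rnr1. Since ribosomal RNA was removed before sequencing, these levels also depend on how complete the removal was in each library, whose part was not tested. The ratio of mt-Rnr1 to mt-Rnr2 counts was 0.102 ± 0.0026 in dKO, 0.0879 ± 0.00088 in Tet2KO, 0.0753 ± 0.00079 in Id1KO and 0.0852 ± 0.0099 in WT (SD, n = 3).

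The 22 transfer RNAs, which are 59 to 75 bases long, were almost unseen. mt-Tt, the transfer RNA for threonine, had 2 counts in WT 3, and mt-Tm, that for methionine, had 1 count in dKO 1. The other 20 were at 0 in all 12 libraries. A count of 0 allows up to 3 counts, or 0.150 to 0.191 CPM, which covers counting error only.

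Nuclear genes that act on mitochondrial genes and their RNA are described by their counts, to be read against the shares of all genes called. These shares were 32.8% in Tet2KO against WT (16.2% lower), 19.3% in dKO against Id1KO (8.7% lower) and 26.4% in dKO against Tet2KO (13.4% lower). Of 35 genes of mitochondrial RNA processing, modification and decay, 15 fell and none rose in Tet2KO against WT, with a median log2 fold change of -0.13. In dKO against Id1KO 5 fell and none rose, and in dKO against Tet2KO 12 rose and none fell. Fastkd2, an RNA-binding protein of the mitochondrial matrix, fell most in Tet2KO, from 45.1 ± 1.3 to 34.6 ± 1.9 CPM (edgeR adjusted p 7.9e-05). Supv3l1 stood at 47.4 CPM in WT, 37.3 in Tet2KO, then 45.4 for Id1KO and 46.6 for dKO. Its log2 fold change was -0.34 in Tet2KO against WT (edgeR adjusted p 9.59e-06), 0.32 from Tet2KO to dKO (4.43e-05) and 0.04 from Id1KO to dKO (0.633). Its partner Pnpt1 fell by 0.15 in Tet2KO (edgeR adjusted p 0.00344) and by 0.16 in dKO against Id1KO (0.00207), and rose by 0.17 in Id1KO against WT (0.00227). Lrpprc and Slirp fell by 0.16 and 0.27 in Tet2KO (edgeR adjusted p 0.000578 and 0.000446) and stood at -0.07 and -0.03 in dKO against Id1KO (0.135 and 0.753). Mtpap was at -0.06 in Tet2KO and -0.03 in dKO against Id1KO (edgeR adjusted p 0.401 and 0.765). Other called genes with the largest change in their comparison were Cdk5rap1, a transfer RNA modifier, at -0.37 in Id1KO and -0.41 in dKO against WT, Fastkd5, which helps process messengers without flanking transfer RNAs, at -0.31 in dKO against Id1KO, and the methyltransferase gene Nsun3 at 0.51 in the interaction.

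Of 18 genes of mitochondrial transcription tested, 4 fell and 1 rose in Tet2KO, and 2 fell and 2 rose in dKO against Id1KO, which is near the share called among all genes (32.8% and 19.3%). Polrmt was at -0.12 and -0.09 in these comparisons (edgeR adjusted p 0.214 and 0.417). Tfam fell by 0.12 and 0.13 (edgeR adjusted p 0.0295 and 0.0337), from 56.1 to 51.6 CPM and from 60.3 to 55.1 CPM. Tefm, the elongation factor, stood at 11.2 CPM in WT, 8.92 in Tet2KO, then 10.96 for Id1KO and 11.1 for dKO, and its fall of 0.33 in Tet2KO was called (edgeR adjusted p 0.0112). Mrpl12, a ribosomal protein that also binds the polymerase, was at -0.21 in Id1KO against WT and 0.46 in the interaction, Pprc1, a coactivator, at 0.26 in dKO against WT, and Mterf1a, a termination factor, at -0.28 in dKO against Id1KO. Among 20 genes of mitochondrial DNA replication and upkeep, 7 fell and 1 rose in Tet2KO against WT. In dKO against Id1KO neither edgeR nor DESeq2 called any, and 1 was higher and 2 were lower at an unadjusted edgeR p under 0.05. Exog, a nuclease, rose by 0.41 in Tet2KO and was at -0.52 in the interaction. The exonuclease gene Mgme1 fell by 0.72 in Id1KO, 0.71 in dKO against WT and 0.50 in dKO against Tet2KO.

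Nuclear subunits of the same complexes were compared in the same fit. In Tet2KO against WT, where 16.2% of all genes were lower, 13 of 36 nuclear subunits of complex I fell and none rose, with a median log2 fold change of -0.11. Of 34 nuclear subunits of complexes III, IV and V, 25 fell and none rose, with a median of -0.11. In dKO against Id1KO, where 8.7% of all genes were lower, 3 of 36 and 6 of 34 fell, with medians of -0.05 and -0.04, where the median of the mitochondrial messengers was -0.53. In dKO against Tet2KO, where 26.4% of all genes were called, 6 of 36 rose and 1 fell, and 11 of 34 rose and none fell. In that comparison 8 of 13 mitochondrial messengers fell and none rose. These sets are described by their counts, and the difference between them was not tested.

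Other measures moved with the labels. The summed level of 14 erythroid markers was 1577 to 1627 CPM in WT, 947 to 954 in Tet2KO, 1761 to 1798 in Id1KO and 1581 to 1601 in dKO, with none of the 14 at 0. This sum was lower in Tet2KO than in WT and lower in dKO than in Id1KO, and in dKO it lay within the WT range. By gene, 13 of the 14 fell and none rose in Tet2KO against WT (32.8% of all genes called). In dKO against Id1KO 5 rose and 5 fell, with a median log2 fold change of -0.04 (19.3% of all genes called). In dKO against WT 6 rose and 2 fell (19.2% of all genes called). The summed level of 8 monocyte and dendritic markers was 731 to 750 CPM in WT, 808 to 817 in Tet2KO, 653 to 656 in Id1KO and 810 to 838 in dKO, with none at 0. The monocyte and dendritic sum was thus highest in Tet2KO and dKO and lowest in Id1KO. By gene, of 7 tested, 3 rose and none fell in Tet2KO against WT (32.8% of all genes called) and in dKO against Id1KO (19.3%). In Id1KO against WT 1 rose and 3 fell, with a median log2 fold change of 0.03 (15% of all genes called). In dKO against WT 2 rose and 1 fell (19.2%). The 8 stem and progenitor markers summed to 748 to 753 CPM in WT, 810 to 829 in Tet2KO, 673 to 678 in Id1KO and 680 to 693 in dKO. By gene, 5 rose and none fell in Tet2KO against WT (32.8% of all genes called). In Id1KO against WT 1 rose and 2 fell, with a median log2 fold change of 0.10 (15%). In dKO against WT 1 rose and 4 fell, with a median of 0.03 (19.2%). The 8 megakaryocyte markers summed to 177 to 185, 187 to 198, 241 to 256 and 185 to 201 CPM in WT, Tet2KO, Id1KO and dKO. Of these 8, 3 rose and none fell in Tet2KO against WT, with a median log2 fold change of -0.02 (32.8% of all genes called). The same counts held in Id1KO against WT, with a median of 0.41 (15%). The 7 mast cell and basophil markers summed to 151 to 159, 164 to 167, 149 to 160 and 141 to 146 CPM in that order of labels. The summed level of 11 neutrophil granule genes was 14437 to 14511 CPM in WT, 15929 to 16171 in Tet2KO, 12232 to 13189 in Id1KO and 12032 to 13206 in dKO, and none was at 0. Its genes did not all follow the sum. In dKO against WT 4 of the 11 rose and 3 fell, with a median log2 fold change of 0.06 (19.2% of all genes called). In Id1KO against WT 1 rose and 2 fell (15% of all genes called). The 8 lymphoid markers summed to 104 to 108, 141 to 148, 84.1 to 89.6 and 97.6 to 104 CPM in the same order of labels. Of 7 tested, 5 rose and none fell in Tet2KO against WT (32.8% of all genes called). In dKO against WT none rose and 1 fell, with a median log2 fold change of 0.09 (19.2%). Abundant small structural RNAs summed to 86074 to 88715 CPM in WT and 53931 to 64172 in the other labels. With short RNA genes left out of the total, the share of messengers with copies fell by 18.7% from WT to Tet2KO and fell by 28.2% from Id1KO to dKO. With them in the total it fell by 16.3% and fell by 28.5%. Genes that hold cytosolic ribosomal RNA sequence summed to 11641 to 13819 CPM in dKO and 8458 to 9889 elsewhere. The part of cell makeup and ribosomal RNA removal in the fall of the messengers was not tested. In these bulk libraries fewer cells of a type that is rich in mitochondrial RNA and less such RNA per cell cannot be told apart.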

How the data were processed

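Gene-level RNA-seq values of 12 libraries were deposited as 1 table of estimated counts. Per the submitters' processing notes, STAR, RSEM and the build mm10 were used, with no version named, and the strand setting is not given in the sources used here. The deposited estimated counts, of which 8.25% of genes hold a non-whole value, were rounded. RSEM divides a read that matches several genes among them, which bears on genes with nuclear copies.

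All 55450 gene IDs and symbols matched GENCODE M21. Nuclear copies were genes with at least 95% identity to a mitochondrial gene over 100 bases or more (BLAST 2.17.0, on annotated transcripts). Counts were fitted with edgeR 4.0.16 in R 4.3.3 over all 12 libraries with TMM scaling, a filter on low counts (filterByExpr, minimum count 10, leaving 14346 genes) and the quasi-likelihood test. Adjusted p-values are Benjamini-Hochberg over all genes tested, with a threshold of 0.05. The interaction is dKO minus Tet2KO minus Id1KO plus WT. A further fit set the library size to the sum of the 13 messengers, and another added the counts of nuclear copies to their gene. On simulated data the messenger-sum fit made more false calls across all genes than the fit to library sizes. DESeq2 1.42.0, other scalings and filters, a replicate block, leaving out each library, summing the libraries of a genotype and a stricter threshold were tried as alternatives.

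All 37 members are accounted for. Beside them, nuclear genes are named where they had the largest change past the threshold in their list and comparison, or are the transcription and messenger stability factors set out at the start. The members and lists were chosen with earlier results of these data known. Libraries of a genotype differed beyond counting error (chi-square per gene 1.52 to 5.35) and were kept apart. Levels of CPM rest on 15706407 to 19959183 counts per library, and floors cover counting error only.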

Additional observations from a re-analysis of the deposited data

Results flagged for a closer look

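The change with a Tet2-null label differed between the WT and Id1-null backgrounds, by the test of the interaction itself, for 5 messengers as deposited. The log2 values were -0.1852 for mt-Co1 (edgeR adjusted p 0.0045), -0.3917 for mt-Atp8 (0.00392), -0.4254 for mt-Atp6 (0.00601), -0.4826 for mt-Nd3 (0.00341) and -0.1929 for mt-Cytb (0.0165). Each stood lower in dKO than the separate changes with the single labels add up to. mt-Nd3 did not keep its call with the nuclear copies added. Both arms share the possible limit that the libraries of a genotype may come from 1 cell sample, so a difference between samples and a difference between genotypes cannot be told apart.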

How the results depend on the processing

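Every fold change here compares libraries that may be repeats of 1 cell sample per genotype, and the values are shares of each library. Depth limits mt-Nd6, mt-Nd4l and the transfer RNAs most. Of the 9 calls in Tet2KO against WT, 8 held with DESeq2 and without each library in turn, and only mt-Nd2 did not; with summed libraries mt-Atp8 and mt-Atp6 were lost too. Counts of messengers called that moved by over 1.5 times follow, and the cause was not tested except that the summed fit has few residual degrees of freedom and no interaction term. In the summed fit each label thus has a single estimate for both backgrounds of the other label. For these settings, and for those with a library left out, the share of all genes called is not given. For Id1KO against WT, with 4 calls, DESeq2 gave 2, no filter 7, an adjusted p of 0.01 gave 1 and summed libraries 0. For dKO against Tet2KO, with 8, an adjusted p of 0.01 gave 5 and summed libraries 0. Summed libraries gave 1 of 10 for dKO against WT and 6 of 11 for dKO against Id1KO. The interaction, with 5, had 8 with no filter.

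Leaving out 1 library gave 1 to 4 calls for Id1KO against WT (2 without WT 3 or Id1KO 1, 1 without Id1KO 3) and 5 to 8 for dKO against Tet2KO (5 without Tet2KO 3 or dKO 1). With copies added it gave 1 to 3 for Id1KO against WT (1 without Id1KO 1 or Id1KO 3). Relative to the messenger sum it gave 3 to 5 for Tet2KO against WT (5 without WT 1), 1 to 3 for Id1KO against WT (1 without WT 1, WT 3, Id1KO 2 or Id1KO 3), 1 to 4 for dKO against Tet2KO (1 without Tet2KO 2) and 1 to 4 for the interaction (4 without WT 2, 3 without dKO 2 or dKO 3, 2 without WT 1, any Tet2KO library, Id1KO 1 or Id1KO 3).

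Relative to the sum, the interaction count of 1 became 3 with DESeq2 and 2 with copies added, an adjusted p of 0.01 gave 1 for Id1KO against WT and 1 for dKO against Tet2KO, and a sum without mt-Co1 gave 6 for dKO against Tet2KO. Among values called in at least 1 of the 2 fits, signs turned with copies for mt-Co2 in Id1KO against WT (0.02692) and mt-Nd3 in dKO against Tet2KO (0.0973). In the latter comparison they also turned for mt-Co1 and mt-Nd3 with summed libraries (0.00848 and 0.02908). Those values are single estimates shared with Id1KO against WT, where the main fit had both genes higher. Relative to the sum with copies, signs turned for mt-Co3 in dKO against WT (0.02881), mt-Nd3 in dKO against Tet2KO (0.2244) and mt-Atp6 in dKO against Id1KO (0.0002877). mt-Rnr1 in dKO against WT ran from -0.3515 without WT 2 to 0.2835 without WT 1 (-0.3516 to 0.2834 with copies). Of the single-gene values under settings that kept all libraries, 1445 kept their side of the threshold (uncalled values among them could change sign), 65 gained a call, 73 lost one and 7 changed sign with a call in at least 1 fit.

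Same-numbered libraries of different genotypes correlated at -0.097 to 0.113, and 1 of 18 pairs was above 0.1. Pairs with different numbers correlated at -0.104 to 0.174, and 1 of 36 was above 0.1. The division of counts between gene and copy did follow the number for mt-Co2 and mt-Co3. Within every genotype, library 2 gave both genes their highest share, and library 3 gave mt-Co3 its lowest. For mt-Co3 in Tet2KO against WT, the SE was 0.095 without a replicate block and 0.035 with it (edgeR adjusted p 0.0808 and 0.000107). Whether same-numbered libraries share more than a number was not tested. 6 of 12 libraries correlated best with their own number. The replicate block gave 10 calls for Tet2KO against WT, 4 for Id1KO, 10 for dKO against the same WT libraries, 7 against Tet2KO, 11 against Id1KO, and 6 for the interaction. Relative to the sum the block gave 4 for the interaction in place of 1. The share of all genes called with the block is not given beside these counts.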

Other observations

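In Tet2KO against WT, and likewise for dKO against Id1KO, the messengers that are abundant per length had a narrower range of fold changes than the scarce ones. In dKO against Tet2KO the range of the abundant ones was the wider, from -0.31 to 0.10 against -0.29 to -0.01. This grouping was chosen after the values were seen and is a description only. With copies added, 8 messengers stood above 500 CPM per kb (mt-Nd1, mt-Co1, mt-Co2, mt-Atp8, mt-Atp6, mt-Co3, mt-Nd3 and mt-Cytb, 616.5 to 3752). Their log2 fold changes ran from -0.50 to -0.24 in Tet2KO against WT and from -0.64 to -0.44 in dKO against Id1KO. The other 5 (mt-Nd2, mt-Nd4l, mt-Nd4, mt-Nd5 and mt-Nd6, 31.2 to 133) ran from -0.61 to 0.08 and from -0.90 to 0.26. All 5 are subunits of complex I. In Tet2KO against WT their SE ran from 0.049 for mt-Nd4 to 0.10 for mt-Nd4l. That of the abundant ones ran from 0.028 for mt-Co1 to 0.059 for mt-Atp8. The lowest and the highest fold changes of the 5 belong to mt-Nd6 and mt-Nd5, neighbouring genes on opposite strands that share only their last 14 bases.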
